A study of Homo sapiens with 10 samples.

Results

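The miR-30 family was examined as the 10 mature microRNAs (miRNAs) hsa-miR-30a-5p, hsa-miR-30b-5p, hsa-miR-30c-5p, hsa-miR-30d-5p, hsa-miR-30e-5p, hsa-miR-30a-3p, hsa-miR-30b-3p, hsa-miR-30c-2-3p, hsa-miR-30d-3p and hsa-miR-30e-3p, chosen by name among the 2565 miRNA probes of each array and written below without the species prefix. Their levels were read in HuH-7 cells, a human liver cancer line in long use, in 2 groups of 5 single-colour arrays. The lenvatinib group was treated with 1 µM lenvatinib, an inhibitor of VEGF and FGF receptor tyrosine kinases, for 96 h, and the control group was kept for 96 h without it. All cells grew in low-glucose DMEM with fetal bovine serum, and the series asks which miRNAs go with the antitumour effect of the drug. The label on RNA extraction speaks of serum, whereas the source labels speak of a cell line. Separate cultures are not stated for the replicates, so the p-values below take in the array-to-array spread alone, and that spread may be technical.

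MiRNAs guide Argonaute proteins to messenger RNAs that pair with the seed, bases 2 to 8 of the mature strand. The 5p strands of the miR-30 family share 1 seed and are the strands usually loaded, while the 3p strands come from the other side of the same hairpins and carry other seeds. The family is known for repressing SNAI1, a driver of the epithelial-mesenchymal transition, and in the liver miR-30c is known to repress MTTP, which loads lipid onto lipoproteins.

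RefSeq (GRCh38.p14) gave a mature sequence for 6 of the 10 members. They are shown because the values differ between strands that are nearly the same. How far the probes tell such strands apart was not tested. Capitals mark the seed.
miR-30a-5p: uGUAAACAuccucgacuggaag
miR-30e-5p: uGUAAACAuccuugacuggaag
miR-30c-5p: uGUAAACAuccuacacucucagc
miR-30a-3p: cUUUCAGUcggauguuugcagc
miR-30e-3p: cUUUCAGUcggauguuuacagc
miR-30c-2-3p: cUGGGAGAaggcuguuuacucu
MiR-30a-5p and miR-30e-5p match at 21 of 22 positions and differ by C13U, counted from the 5′ end with the miR-30a base first. Their opposite strands, miR-30a-3p and miR-30e-3p, also match at 21 of 22 and differ by G18A. MiR-30c-5p matches miR-30a-5p at 17 of the first 22 positions.

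The hairpins lie in gene clusters. On GRCh38.p14, MIR30E (chr1:40754355-40754446, plus strand) and MIR30C1 (chr1:40757284-40757372, plus strand) are 2837 bases apart inside the span of NFYC, a gene for a subunit of the transcription factor NF-Y. MIR30C2 (chr6:71376960-71377031, minus strand) and MIR30A (chr6:71403551-71403621, minus strand) are 26519 bases apart. Among the RefSeq genes searched here no other gene spanned either of them, and genes outside that set were not looked at. MiR-30c-5p has the same sequence in MIR30C1 and MIR30C2, so its probe reads both hairpins together. MIR30B and MIR30D form another cluster. The sequence table holds no strand of miR-30b or miR-30d, so the seed counts leave those members out. The seed GUAAACA was held by 3 mature names of the 2370 in the sequence table, all of them members. Within that table UUUCAGU was held by miR-30a-3p and miR-30e-3p, and UGGGAGA by miR-30c-2-3p, miR-30c-1-3p and miR-6788-5p.

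The arrays of the groups differed in brightness before any normalization. Blank spots read 62.2 to 85.5 intensity units on lenvatinib arrays and 30.9 to 34.6 on control arrays (exact two-sided permutation test, p = 0.00794, the smallest that 5 against 5 arrays can give), and treatment and blank level cannot be told apart. The median of miRNAs detected on all arrays was higher by 1.36 on the log2 scale with lenvatinib (same test, same p, Benjamini-Hochberg adjusted p = 0.00992 over 5 array measures), so every direction below is relative to the bulk of the miRNAs after quantile normalization. Spike controls 1 and 2 also read higher on lenvatinib arrays, by 1.21 and 1.27 on the log2 scale. Each gave p = 0.00794 in the exact permutation test and an adjusted p of 0.00992. Lenvatinib replicate 5 had the brightest blanks and 10 miRNA spots that the files mark NG, taken here to mean bad, against 0 to 2 on the other arrays. Of the hepatocyte miRNAs miR-122-5p, miR-192-5p, miR-194-5p and miR-885-5p, 4 of 4 were detected on all 10 arrays. Those 4 together held 44892 to 60213 ppm of the summed signal of detected miRNAs on lenvatinib arrays and 28260 to 32934 on control arrays. Against that, 3 erythroid miRNAs held 29.0 to 143 on lenvatinib and 55.1 to 94.5 on control arrays, and 3 leukocyte miRNAs 0 to 113 on lenvatinib and 34.9 to 63.5 on control arrays. Of the erythroid miRNAs, miR-486-5p was detected on 10 of 10 arrays, miR-451a on 8 and miR-144-3p on 2. Of the leukocyte miRNAs, miR-142-3p was detected on 9 of 10 arrays, miR-150-5p on 8 and miR-223-3p on 2. The 4 endothelial and stromal miRNAs, all detected on all 10 arrays, held 983 to 1808 on lenvatinib arrays and 762 to 894 on control arrays, groups that did not overlap. In the limma test 3 hepatocyte miRNAs rose and 1 fell, and 0 of the 8 tested miRNAs of the other 3 lists passed, also at an unadjusted p under 0.05. Over all 1346 probes tested, 21.5% passed at an adjusted p of 0.05 and 34.0% at an unadjusted p under 0.05. The part of other cell types in the miR-30 values was not tested.

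After quantile normalization the members moved in opposite directions. MiR-30d-5p rose 1.53-fold in lenvatinib-treated cells, miR-30e-5p fell with control cells 2.35-fold higher, and miR-30a-3p fell with control cells 1.39-fold higher. Of the 10 members, 8 were detected on at least 5 arrays and could be tested, and of these 1 rose and 2 fell at an adjusted p of 0.05 (limma, 5 against 5 arrays). Over all 1346 probes tested, 163 rose (12.1%) and 126 fell (9.36%), or 21.5% in either direction, and the members called were 37.5% of the 8. At an unadjusted p under 0.05, 5 of the 8 members passed, against 457 of all 1346 probes (34.0%). The 8 members had a median log2 change of -0.14, against -0.03 over all tested probes. The share of rises among all calls was 56.4%, but 31.8% after scaling to the 75th percentile of the probes detected on all arrays and 70.1% after scaling to the spike controls, and 99.8% with no scaling. These 3 scalings set the median change of all tested probes at -0.21, 0.07 and 1.30 on the log2 scale.

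**Figure D1:**
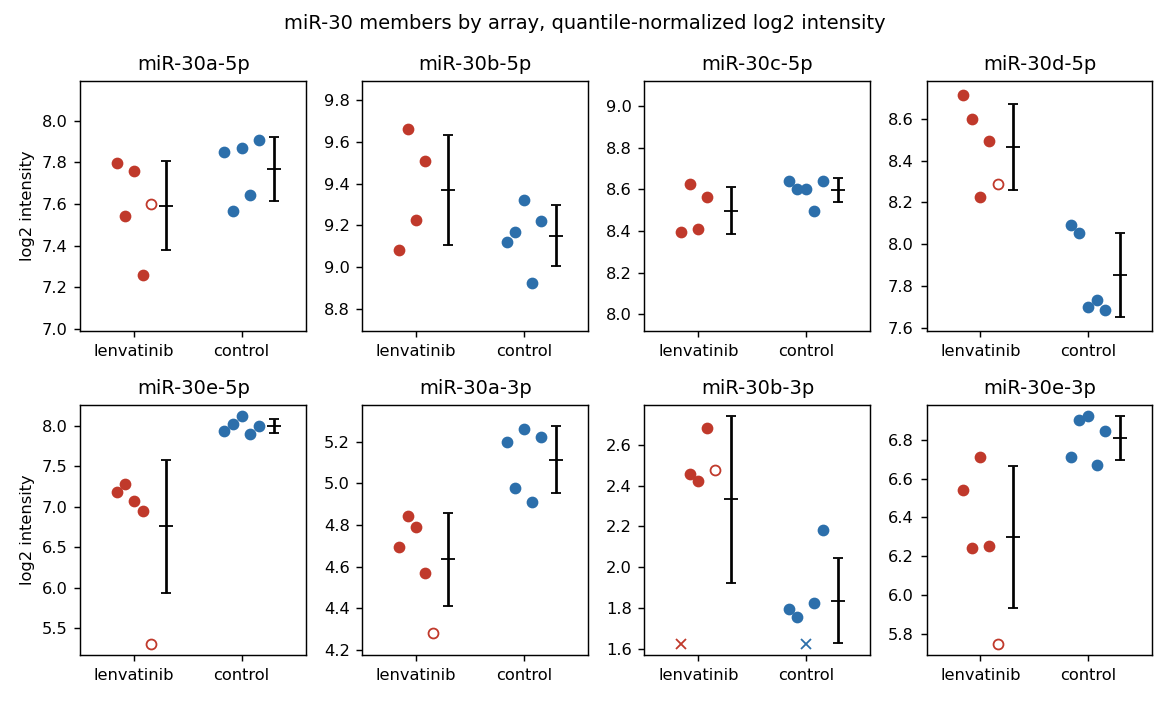
Quantile-normalized log2 intensity (y axis) of the 8 tested miR-30 members on each array, lenvatinib (red) left of control (blue). Open circles are lenvatinib replicate 5, crosses are arrays where the probe was not detected, and bars are mean ± SD. MiR-30d-5p sits wholly higher and miR-30e-5p and miR-30a-3p wholly lower on lenvatinib arrays. Vertical axes differ between panels.

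MiR-30d-5p, a strand with the family seed, had normalized log2 intensities of 8.72, 8.60, 8.23, 8.49 and 8.29 on lenvatinib arrays 1 to 5, against 8.09, 8.05, 7.70, 7.73 and 7.68 on control arrays 1 to 5. Every lenvatinib value was above every control value. The log2 change was 0.61 ± 0.15 (SE, limma adjusted p = 0.0120). Lenvatinib arrays averaged 8.47 ± 0.21 and control arrays 7.85 ± 0.20 (SD, n = 5 each). Of 30 alternatives, 28 kept the call and all 30 kept the sign. The 2 exceptions were the authors' global normalization (0.66, limma adjusted p = 0.0561) and undetected values left missing (0.57, limma adjusted p = 0.0904).

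MiR-30e-5p had normalized log2 intensities of 7.18, 7.28, 7.07, 6.95 and 5.31 on lenvatinib arrays 1 to 5, against 7.93, 8.03, 8.12, 7.89 and 8.0 on control arrays 1 to 5. Every lenvatinib value was below every control value, and lenvatinib replicate 5 stood apart below the other 4. The log2 change was -1.23 ± 0.32 (SE, limma adjusted p = 0.0180). Without lenvatinib replicate 5 it was -0.90 (limma adjusted p = 0.000172), so that array added to the size and to the spread. The call was lost under median scaling (-1.09, limma adjusted p = 0.0660), all-probe 75th percentile scaling (-1.02, 0.0685) and spike control scaling (-0.97, 0.0944), with the authors' global normalization (-1.08, 0.0886) and with no filter on dim probes (-1.23, 0.0771). With no scaling the sign turned (0.27, limma adjusted p = 0.425). Before scaling, lenvatinib arrays 1 to 4 read 225 to 260 background-subtracted units and lenvatinib replicate 5 read 68.5, against 143 to 181 on control arrays.

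MiR-30a-5p, which differs from miR-30e-5p by 1 base, is known to repress the autophagy gene BECN1. Its normalized log2 intensities were 7.80, 7.54, 7.76, 7.26 and 7.60 on lenvatinib arrays 1 to 5, against 7.85, 7.57, 7.87, 7.64 and 7.91 on control arrays 1 to 5. The groups overlapped, with a log2 change of -0.18 ± 0.14 (SE, limma adjusted p = 0.436). Unlike miR-30e-5p, it did not stand apart on lenvatinib replicate 5, which lay 0.01 above the mean of lenvatinib arrays 1 to 4, where miR-30e-5p lay at -1.81.

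The other 2 strands with the family seed had 4 lenvatinib values each, because their spots on lenvatinib replicate 5 were marked as bad. MiR-30b-5p had normalized log2 intensities of 9.08, 9.66, 9.22 and 9.51 on lenvatinib arrays 1 to 4, against 9.12, 9.17, 9.32, 8.92 and 9.22 on control arrays 1 to 5. The groups overlapped (log2 change 0.22 ± 0.16, SE, limma adjusted p = 0.386). MiR-30c-5p, the strand known for repressing MTTP, had 8.39, 8.62, 8.41 and 8.56 on lenvatinib arrays 1 to 4, against 8.64, 8.60, 8.60, 8.49 and 8.64 on control arrays 1 to 5. Here too the groups overlapped (-0.10 ± 0.12, SE, limma adjusted p = 0.640), and the sign of miR-30c-5p turned under 5 of 29 alternatives.

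The bad spots on lenvatinib replicate 5 held low readings. Before scaling, the excluded miR-30b-5p spot read 363 background-subtracted units, against 829 to 1390 on lenvatinib arrays 1 to 4, and the excluded miR-30c-5p spot read 193, against 539 to 638. With those spots kept, the log2 change was -0.09 for miR-30b-5p (limma adjusted p = 0.879) and -0.47 for miR-30c-5p (limma adjusted p = 0.358). On that array miR-30b-5p, miR-30c-5p and miR-30e-5p then lay at -1.54, -1.84 and -1.92 relative to the mean of lenvatinib arrays 1 to 4, among the lowest 2.97%, 1.86% and 1.56% of the tested probes. MiR-30a-5p lay at -0.12 and miR-30d-5p at -0.30 on the same scale. With the bad spots kept, 3 of the 5 strands with the family seed were far below the other lenvatinib arrays on this array. Among those 3, only the spot of miR-30e-5p was not marked as bad.

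Base composition moved with both the change and the deviation of that array. The description covers 748 miRNAs with a RefSeq sequence that were detected on all 10 arrays with no bad spot. The Spearman correlation of GC content with the log2 change was 0.30 (0.27 without lenvatinib replicate 5). With the deviation of lenvatinib replicate 5 it was 0.22. These are correlations across probes of the same arrays, which are not independent replicates. The 56 miRNAs with a GC content at or below the 40.9% of miR-30e-5p had a median log2 change of -0.36 (-0.30 without lenvatinib replicate 5), against 0.19 in the third with the highest GC content. Their median deviation on lenvatinib replicate 5 was -0.45, and 14.3% of them, miR-30e-5p included, lay as low as miR-30e-5p. MiR-30a-5p has 45.5% GC, miR-30c-5p 43.5%, miR-30e-3p 45.5% and miR-30a-3p 50%. The part of base composition in the miR-30e-5p value was not tested.

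**Figure D2:**
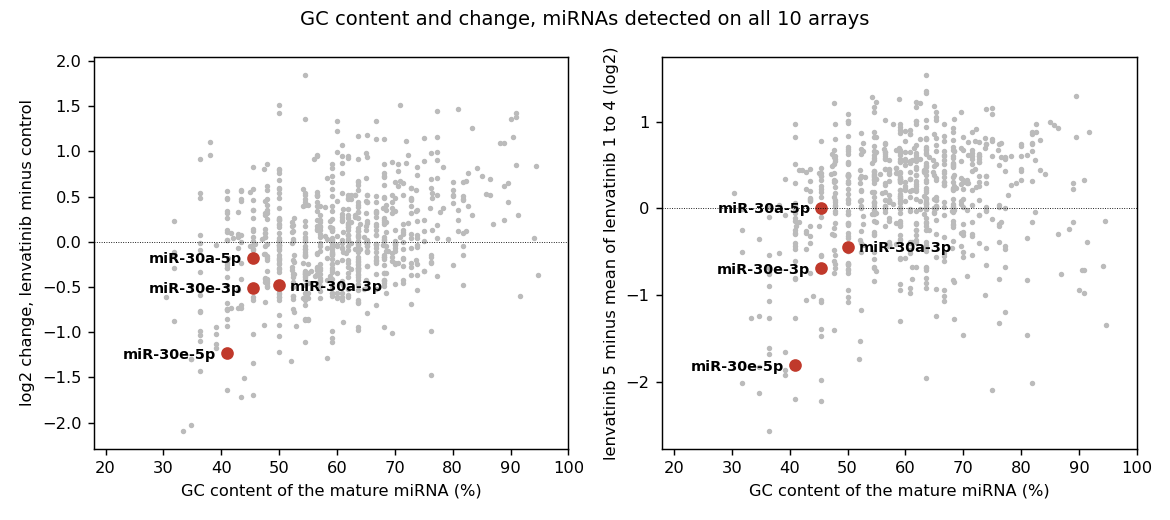
GC content of the mature miRNA (x axis, %) against the log2 change, lenvatinib minus control (left), and against the log2 deviation of lenvatinib replicate 5 from the mean of lenvatinib arrays 1 to 4 (right). Grey points are miRNAs detected on all 10 arrays with no bad spot, and red points are the 4 miR-30 members among them with a sequence. MiR-30e-5p, at 40.9% GC, is the lowest of the red points in both panels, at -1.23 and -1.81.

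Of the 3p strands, miR-30a-3p fell. Its normalized log2 intensities were 4.69, 4.84, 4.79, 4.57 and 4.28 on lenvatinib arrays 1 to 5, against 5.20, 4.98, 5.26, 4.91 and 5.22 on control arrays 1 to 5. The groups did not overlap. That held for 3 of the 8 tested members, 1 of them higher and 2 lower, and for 20.0% of all tested probes, 11.1% higher and 8.84% lower. The log2 change was -0.48 ± 0.14 (SE, limma adjusted p = 0.0347). The call held with the same sign in 18 of 30 alternatives. It was lost without lenvatinib replicate 1 or 4 or control replicate 1, 3 or 5 (limma adjusted p from 0.0596 to 0.0802), after median, spike control or all-probe 75th percentile scaling, with the authors' global normalization, and with undetected values left missing (limma adjusted p from 0.0974 to 0.185). With the replicate number as a block its limma adjusted p was 0.0691. Handling of the background moved the size by over 1.5 times, to -0.17 with normexp correction and -0.18 with no correction. The normexp correction added an offset of 50 units, while the background-subtracted intensity of miR-30a-3p was 17.4 to 44.4 units. The part of that offset in the size was not tested. With no scaling the sign turned (0.93).

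MiR-30e-3p, which shares its seed with miR-30a-3p, had 6.54, 6.24, 6.71, 6.25 and 5.75 on lenvatinib arrays 1 to 5, against 6.71, 6.90, 6.92, 6.67 and 6.84 on control arrays 1 to 5. Lenvatinib replicate 3 reached into the control range, and the change of -0.51 ± 0.18 did not pass (SE, limma adjusted p = 0.0611). It passed downward under 7 of 30 alternatives, among them normexp correction (-0.31, limma adjusted p = 0.0248) and the authors' table of the whole series (-0.55, limma adjusted p = 0.0337), and its sign turned with no scaling (1.04).

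The remaining 3p strands were near the detection limit. MiR-30b-3p was detected on 4 lenvatinib and 4 control arrays. Its raw brightness was 5.04, 8.48, 7.71, 10.4 and 9.67 units above the blank mean on lenvatinib arrays 1 to 5, of which the first was under the limit, against 1.82, 2.37, 0.283, 2.63 and 2.46 on control arrays 1 to 5, of which the third was under it. After normalization, with undetected values at the lowest detected value of their array, the log2 change was 0.50 ± 0.20 and did not pass (SE, limma adjusted p = 0.0980). It passed upward under 6 of 28 alternatives and was 0.06 with normexp correction, which added an offset of 50 units. Without lenvatinib replicate 1, the array on which it was undetected, it was 0.69 (limma adjusted p = 0.00932). MiR-30c-2-3p was detected on 2 lenvatinib arrays and 0 control arrays, and miR-30d-3p on 1 lenvatinib array and 0 control arrays. Neither was tested, and their levels were mostly not well above background in either group.

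MiR-30c-1-3p, the 3p strand of the other miR-30c hairpin, is not among the 10 members but shares the seed of miR-30c-2-3p. It was detected on 4 lenvatinib and 3 control arrays, with a log2 change of 0.56 ± 0.25 that did not pass (SE, limma adjusted p = 0.129).

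**Figure D3:**
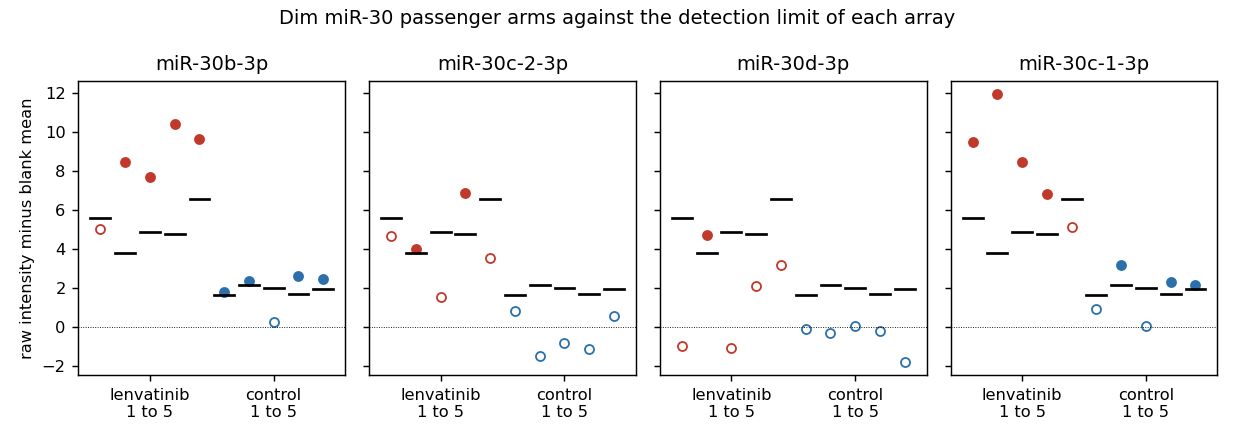
Raw intensity minus the blank mean (y axis, intensity units) of miR-30b-3p, miR-30c-2-3p, miR-30d-3p and miR-30c-1-3p on lenvatinib arrays 1 to 5 (red, left) and control arrays 1 to 5 (blue, right). Filled points were detected, open points were not, and the short black lines are the detection limit of each array. Most points of miR-30c-2-3p and miR-30d-3p lie under their limit, and the limits are higher on lenvatinib arrays.

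Differences between members on the same array compare their changes with less dependence on scaling. Of 10 pairs set by hairpin and cluster, 6 had both members tested, and each was compared by an exact two-sided permutation test over arrays with Benjamini-Hochberg adjustment over the 6. The 2 strands of miR-30e changed unequally. Their log2 difference, 5p minus 3p, was 0.64, 1.03, 0.36, 0.70 and -0.44 on lenvatinib arrays 1 to 5, against 1.22, 1.12, 1.19, 1.22 and 1.15 on control arrays 1 to 5. All lenvatinib values lay below all control values, by -0.73 on average (exact permutation test, p = 0.00794, adjusted p = 0.0238). Without lenvatinib replicate 5 the mean difference was -0.53 (exact permutation test, adjusted p = 0.0238). Without any 1 of the control arrays the adjusted p of the exact permutation test was 0.0571 to 0.0857, and the mean difference was -0.72 to -0.70. The smallest p that 4 against 5 arrays can give in this test is 0.00794, as with 5 against 5.

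MiR-30e-5p and miR-30c-5p, whose hairpins MIR30E and MIR30C1 sit together in NFYC, also parted. Their log2 difference was -1.21, -1.35, -1.34 and -1.61 on lenvatinib arrays 1 to 4, against -0.71, -0.58, -0.49, -0.60 and -0.64 on control arrays 1 to 5. The groups did not overlap, with a mean difference of -0.77 (exact permutation test, p = 0.00794, adjusted p = 0.0238). Lenvatinib replicate 5 is not in this value. Without lenvatinib replicate 1 or 3, or any 1 of the control arrays, the adjusted p of the exact permutation test was 0.0536 to 0.0857 and the mean difference -0.83 to -0.74. MiR-30c-5p also comes from MIR30C2, so the value does not compare 2 products of 1 transcript alone.

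The strands of miR-30a differed in change by 0.30, with 5p minus 3p at 2.96 ± 0.27 on lenvatinib arrays and 2.65 ± 0.06 on control arrays (SD, n = 5 each, exact permutation test, adjusted p = 0.0476). The groups overlapped. With normexp correction, which added an offset of 50 units, the difference was 0.03 (exact permutation test, adjusted p = 0.714). The call was kept in 11 of 22 alternatives, and without lenvatinib replicate 5 the difference was 0.21 (exact permutation test, adjusted p = 0.0833). MiR-30b-5p minus miR-30d-5p was 0.86 ± 0.33 on lenvatinib arrays and 1.30 ± 0.26 on control arrays (SD, n = 4 and n = 5), lower by -0.44 (exact permutation test, adjusted p = 0.0476). This call held under 1 of 22 alternatives (exact permutation test, adjusted p from 0.0476 to 0.267), and without lenvatinib replicate 1 the difference was -0.28. That array stood apart, at 0.37 against 1.00 to 1.06 on the other 3. The strands of miR-30b (-0.24, exact permutation test, adjusted p = 0.286) and the pair of miR-30a-5p and miR-30c-5p (-0.08, exact permutation test, adjusted p = 0.667) did not pass.

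**Figure D4:**
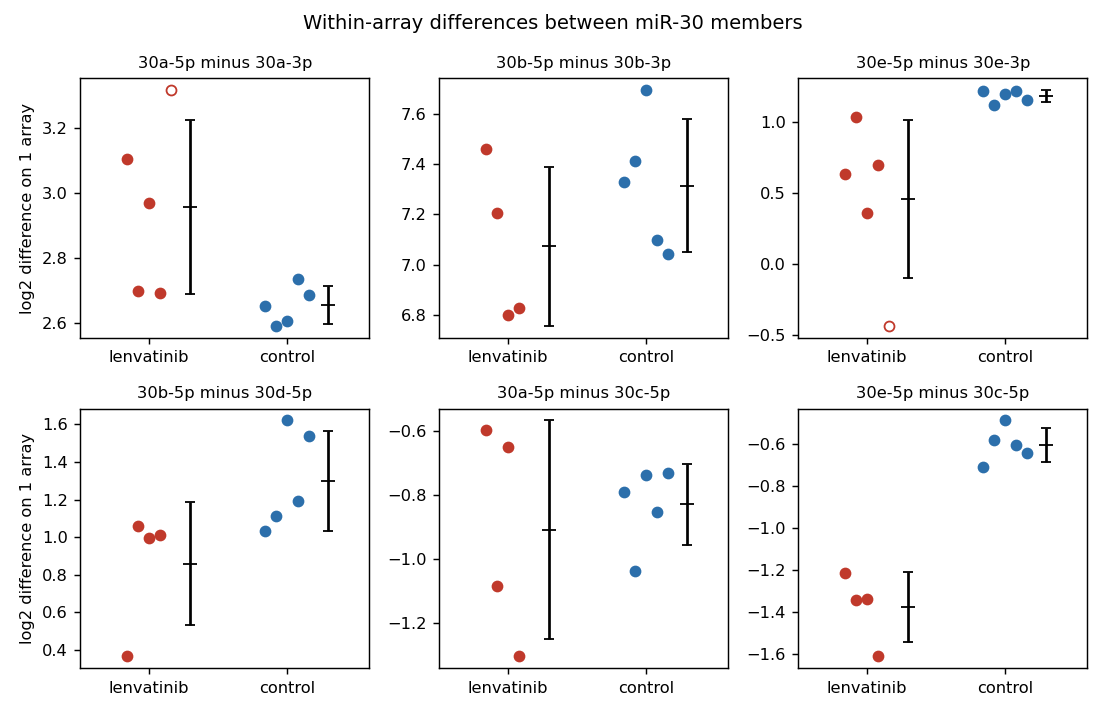
Log2 difference between 2 miR-30 members on the same array (y axis) for the 6 tested pairs, lenvatinib (red) left of control (blue), with mean ± SD. Open circles are lenvatinib replicate 5, which is absent where a spot was marked as bad. The groups do not overlap for miR-30e-5p minus miR-30e-3p and for miR-30e-5p minus miR-30c-5p. Vertical axes differ between panels.

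Within the groups some members varied together and others did not. The 5 members detected on all 10 arrays with no bad spot were compared with each group's mean removed. Their Pearson correlation over the 10 arrays ran from -0.17 (miR-30a-5p with miR-30d-5p) to 0.81 (miR-30e-5p with miR-30e-3p). Among 858 miRNAs detected on all arrays with no bad spot, those most like miR-30e-5p were miR-582-5p (r = 0.99), miR-378c (r = 0.99) and miR-186-5p (r = 0.98). Their log2 changes were -1.29, -1.32 and -0.53. Most like miR-30d-5p were miR-16-2-3p (r = 0.90), let-7a-5p (r = 0.89) and miR-660-5p (r = 0.87), with log2 changes of -0.33, -0.09 and -0.98. The changes of all 3 differ in sign from that of miR-30d-5p. MiR-30a-3p was most like miR-17-3p (r = 0.93), miR-1237-5p (r = 0.91) and miR-128-2-5p (r = 0.91), with log2 changes of -0.92, 1.16 and 0.77. The changes of miR-1237-5p and miR-128-2-5p differ in sign from that of miR-30a-3p. MiR-30e-3p was most like miR-6724-5p (r = 0.94), miR-4532 (r = 0.91) and miR-5010-3p (r = 0.90), with log2 changes of 0.29, -0.64 and -0.58. For miR-30a-5p these were miR-1972 (r = 0.89), miR-5095 (r = 0.85) and miR-6796-3p (r = 0.84), with log2 changes of -0.33, -0.51 and -0.27. All these correlations describe the same 10 arrays, which share their differences in brightness. Those with miR-30e-5p, miR-30e-3p and miR-30a-3p include their lowest lenvatinib value, that of lenvatinib replicate 5. The 3 miRNAs listed for each member are the highest among the 858. How high such a pick runs without shared variation was not tested.

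Among 7 other miRNAs known for holding the epithelial state, 5 were tested, of which 2 rose and 0 fell, with a median log2 change of 0.48 against -0.03 over all tested probes. The same shares over all tested probes were 12.1% and 9.36%. MiR-200b-3p (0.92 ± 0.12, SE, limma adjusted p = 0.000273) and miR-200a-3p (0.56 ± 0.18, SE, limma adjusted p = 0.0488), which repress ZEB1 and ZEB2, passed, and miR-200c-3p did not (0.48 ± 0.18, SE, limma adjusted p = 0.0803). MiR-429 and miR-34a-5p had log2 changes of 0.40 and 0.20 that did not pass, miR-141-3p was detected on 0 arrays and miR-203a-3p on 3 of 10. At an unadjusted p under 0.05, 3 of the 5 passed, against 34.0% of all tested probes. This list was fitted under the reported setting alone.

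**Figure D5:**
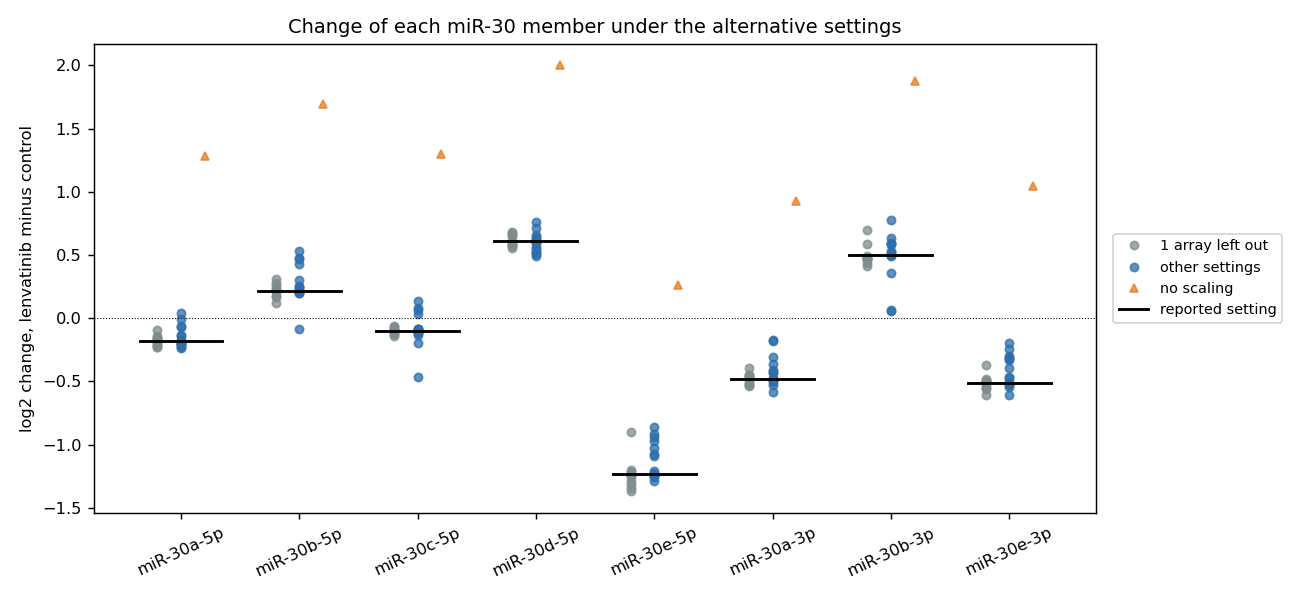
Log2 change, lenvatinib minus control (y axis), of the 8 tested miR-30 members under the reported setting (black bar), with each array left out in turn (grey), under the other alternatives (blue) and with no scaling (orange triangles). MiR-30d-5p is above 0 and miR-30e-5p below 0 under every setting shown except that miR-30e-5p is at 0.27 with no scaling.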

How the data were processed

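Per the labels' protocols, RNA of treated and untreated HuH-7 cells carried Cy5 and was read on 3D-Gene arrays, 1 array to a sample. The deposited array files hold linear intensity, per the file headers, as raw, background-subtracted and globally normalized values. Scanner and software: not given in the sources used here. Tested on the values, the subtraction equalled raw intensity minus the blank mean (5% trimmed at each end), with spots under that mean plus 2 SD left empty, and the deposited global normalization set each array's median to 25.

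From the subtracted intensity, spots marked NG were left out, undetected probes were given their array's lowest detected value, and log2 values were quantile normalized. Probes detected on at least 5 of 10 arrays were tested with limma 3.58.1 in R 4.3.3 (lmFit, eBayes, two-sided, Benjamini-Hochberg), a script also run on simulated data. Pairs of members were compared by exact permutation over 252 splits, fewer where an array was missing. All p-values of single miRNAs are limma's. The number of arrays limits the precision.

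The members, lists and tests were chosen with earlier results of these data known. Named are all members, miR-30c-1-3p, up to 3 epithelial miRNAs with the smallest p and the markers. Also named are the 3 miRNAs most correlated with each member detected on all arrays with no bad spot. MiR-429, miR-34a-5p, miR-141-3p and miR-203a-3p were added to complete the epithelial list. The description by GC content was chosen after seeing the data. Alternatives covered background, scaling, filter, undetected values, bad spots, test, replicate block and each array left out. The normexp background correction used an offset of 50 units.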

Additional observations from a re-analysis of the deposited data

Results flagged for a closer look

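In 30 groups of 4 or 5 arrays, the lowest or the highest array was compared with its neighbour as a share of the group's range (Dixon's test), and chance marks about 1 in 20 such groups. It marked 4. For miR-30e-5p, lenvatinib replicate 5 at 5.31 stood apart below the others, with a gap of 0.834 of the range. For miR-30b-3p, lenvatinib replicate 1 stood apart below the others with a gap of 0.756, on an array where the probe was not detected and had been set to the lowest value. For miR-30b-5p minus miR-30d-5p, lenvatinib replicate 1 at 0.37 stood apart below the other 3 arrays with a gap of 0.908. For miR-30c-5p in the control group, replicate 4 at 8.49 stood apart below the others with a gap of 0.743.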

How the results depend on the processing

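Of the 3 members called, miR-30d-5p kept its sign under all 30 alternatives, while miR-30e-5p and miR-30a-3p reversed with no scaling, where the brightness of the arrays stays in the values. Members higher numbered 1 as reported, 2 with median scaling, with the 75th percentile of all probes and with cyclic loess, 3 with spike scaling, 7 with no scaling, 0 with the authors' global normalization and 0 with undetected values left missing. Members lower numbered 2 as reported, 0 with median scaling, the 75th percentile of all probes, spike scaling, no scaling and the authors' global normalization, 1 with no filter, with undetected values left missing and with the replicate block, and 3 with normexp, no background correction, the authors' table of the whole series, probes detected on all 10 arrays, the variance trend and array weights. Leaving out 1 array gave 1 to 2 higher and 1 to 3 lower. Over all probes the 163 higher became 1287 with no scaling and 92 with undetected values left missing (131 to 182 with 1 array left out), and the 126 lower became 238 with the 75th percentile of probes detected on all arrays, 83 with spike scaling and 2 with no scaling (90 to 155 with 1 array left out). The cause of these shifts was not tested.

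Pairs past the threshold numbered 4 as reported, 2 with normexp, with no background correction and with undetected values left missing, and 0 to 3 with 1 array left out. Leaving out 1 further array raises the smallest possible p only for pairs that already lack lenvatinib replicate 5. Signs turned for miR-30b-5p minus miR-30b-3p with normexp (0.15) and no background correction (0.14), and for miR-30a-5p minus miR-30c-5p under median, both 75th percentile, spike, global and no scaling (0.013) and without lenvatinib replicate 4 (-0.18 to 0.054 with 1 array left out). MiR-30c-5p turned with median (0.032), 75th percentile of all probes (0.078), spike (0.14), global (0.067) and no scaling (1.30), and miR-30a-5p with spike (0.043) and no scaling (1.28). With no scaling miR-30e-5p was 0.27, miR-30a-3p 0.93 and miR-30e-3p 1.04. MiR-30b-5p turned with bad spots kept (-0.086). The number of probes detected differed by -35.6 (exact permutation test, p = 0.643), but by 405.8 with 1 raw limit for all arrays.

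Same-numbered arrays deviated together with correlations of 0.181, 0.143, 0.222, 0.141 and 0.0238, and numbers 1 to 4 each matched best with themselves while 5 did not. This is a hint from the data of a factor shared by number. The fit without the block was kept because no label pairs the numbers. The permutation tests of the pairs were not run within replicate numbers. With the replicate block the limma adjusted p was 0.0138 for miR-30d-5p, 0.0263 for miR-30e-5p and 0.0691 for miR-30a-3p (-0.48). Signal near background limits miR-30b-3p, miR-30c-2-3p and miR-30d-3p.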
